A study of Homo sapiens with 28 samples.

Results

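The genes examined were 6 transcription factors that direct progenitors into the T lineage, Tcf7, Bcl11b, Lef1, Gata3, Tox and Ets1, out of 21631 mouse protein-coding genes with a position. They are a list of T-cell specification factors taken by name, and no measured value enters the rule. In mouse marrow each was measured over its gene interval with 5 kb on either side. In human leukaemia lines 3 fixed windows of hg38 were measured: 120 kb around BCL11B on chromosome 14, 55 kb around TCF7 on chromosome 5 and 40 kb around GATA3 on chromosome 10. LEF1, TOX and ETS1 were not analysed here in the human lines. The data are broad peaks from chromatin immunoprecipitation sequencing (ChIP-seq) of H3K27me3 and H3K27ac, the trimethyl and acetyl forms of one lysine of histone H3. The study concerned how loss of Ezh2 and Runx1 acts in leukaemia of early thymic progenitors.

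The 5 DKOITD mice (DKOITD48, DKOITD52, DKOITD53e, DKOITD83 and DKOITD185) were Rag1(Cre/+) and Flt3(ITD/+), and the 3 WT mice were Rag1(+/+) and Flt3(+/+). Both groups were homozygous for floxed Runx1(fl/fl) and floxed Ezh2(fl/fl), so only DKOITD mice carried the Cre and the internal tandem duplication of Flt3. Cre was driven from the Rag1 locus, which is active in early lymphoid progenitors, so cells that never expressed Rag1 keep both floxed genes. DKOITD samples were whole bone marrow, and WT samples were marrow enriched for cells with the receptor Kit on CD117 beads. Genotype and preparation therefore cannot be told apart in any mouse comparison. All mice were C57BL/6. The human samples were 2 libraries per mark of Jurkat, from a T-cell acute lymphoblastic leukaemia, and 2 of Loucy, a T-cell leukaemia line with features of early T-cell precursors. Each line is 1 cell line, and the replicates of a line are libraries of it, so their spread may be technical.

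As background, H3K27me3 is written by a Polycomb complex, whose catalytic subunit is Ezh2 or its relative Ezh1, and covers silent developmental genes in broad domains around their start sites. H3K27ac marks active promoters and enhancers, and the marks exclude each other on a given histone tail. During T-cell development Notch signals induce Tcf7 and Gata3 first, Bcl11b then closes off other fates, and Lef1, Tox and Ets1 act in thymocytes during and after commitment. In multipotent and myeloid marrow cells most of these genes are largely silent, whereas Ets1 is used across lymphoid cells.

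The mouse peak lists differed widely in extent. H3K27me3 peaks covered 3.169 to 40.46 Mb of the genome in DKOITD mice and 13.85 to 27.27 Mb in WT mice, and the 3 mice DKOITD48, DKOITD53e and DKOITD83 had the least, at most 5.236 Mb. For H3K27ac the covered length was 7.034 to 23.8 Mb in DKOITD mice and 16.76 to 29.73 Mb in WT mice. Depth did not follow this order: libraries held 9435546 to 11458360 H3K27ac fragments in DKOITD mice against 6515614 to 7072997 in WT mice, and 3343831 to 6411696 H3K27me3 fragments in DKOITD mice against 2766339 to 3994483 in WT mice. Over all genes tested, the median log2 fold change (DKOITD over WT) was −0.36 for H3K27ac and −0.84 for H3K27me3, so each value below is to be read against that shift. When lengths were scaled by each mouse's territory the medians were 0.15 for H3K27ac and −0.71 for H3K27me3, so the H3K27ac shift changed sign with the scaling. Kit itself had 0.169 ± 0.377 kb of H3K27ac in DKOITD mice (SD, n = 5) and 1.96 ± 1.08 kb in WT mice (SD, n = 3).

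The unit throughout is the length of a locus, in kilobases, that lay under peaks. A locus with 200 bp or more under peaks was called marked in that library. H3K27me3 marked Tcf7, Bcl11b, Lef1 and Gata3 in all 8 mice, as it did 6.02% of all genes. It marked those 4 and Tox in all 3 WT mice, against 20.2% of all genes. Ets1 was the member with the reverse layout, with H3K27ac in all 3 WT mice and no H3K27me3 there. In whole marrow or a bead-enriched fraction, fewer cells carrying a mark and less of the mark per cell cannot be told apart.

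Tcf7 encodes TCF1, an HMG-box factor induced by Notch. It lies on mm10 chromosome 11, 52246527 to 52283383. H3K27me3 covered 0.973 kb in DKOITD48, 4.21 kb in DKOITD52, 0.469 kb in DKOITD53e, 0.756 kb in DKOITD83 and 4.84 kb in DKOITD185, against 2.73, 2.72 and 3.82 kb in the 3 WT mice. The DKOITD mice thus stood on both sides of the WT mice, with 3 below and 2 above all of them. In every mouse the mark had a peak at the same place, inside a region of 5.16 kb merged from the peaks of all 8 mice. DKOITD53e covered 0.469 kb of it. This region ran from 2.99 kb inside the higher-coordinate end of the gene to 2.17 kb beyond it (52280392 to 52285550). Tcf7 is transcribed toward lower coordinates, so this is the end where the gene starts. The locus held 1 peak in 6 of the 8 lists and 2 peaks in DKOITD185 and WT3.

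Bcl11b, a zinc-finger factor needed for T-lineage commitment, lies on chromosome 12, 107910403 to 108004145. Its H3K27me3 covered 4.03 kb in DKOITD48, 19.1 kb in DKOITD52, 2.18 kb in DKOITD53e, 5.69 kb in DKOITD83 and 21.3 kb in DKOITD185, against 21.4, 9.16 and 14.9 kb in the 3 WT mice. DKOITD52 and DKOITD185 lay within the WT range and the other 3 DKOITD mice lay below it. Peaks of the 8 mice merged into 15 regions, and 1 of them was held by all 8, meaning that each mouse had a peak in it. That region of 13.2 kb reached from 7.60 kb inside the higher-coordinate end to 5.64 kb beyond it (107996548 to 108009788), again where the gene starts. A further region of 8.2 kb inside the gene, 20.77 to 28.96 kb from the same end, was held by 7 mice, the exception being DKOITD53e. The remaining 13 regions were each found in 1 or 2 mice. Of the 12 regions seen in a single mouse, 6 were in DKOITD mice and 6 in WT mice.

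Lef1, the HMG-box partner of TCF1, lies on chromosome 3, 131110297 to 131224357. H3K27me3 covered 7.28 kb in DKOITD48, 12.5 kb in DKOITD52, 9.21 kb in DKOITD53e, 7.47 kb in DKOITD83 and 10.5 kb in DKOITD185, against 8, 8.65 and 11.8 kb in the 3 WT mice. In proportion, Lef1 spread least between mice of these 4 genes, with no value under 7.28 kb, and the groups overlapped over most of their range. The shared region, merged from peaks of all 8 mice to 12.8 kb, spanned the lower-coordinate end, where Lef1 starts. It ran from −6.755 kb to 6.07 kb relative to that end (131103542 to 131116369). In the 3 mice with the smallest H3K27me3 territory, Lef1 kept a mean of 7.98 kb, against 11.5 kb in DKOITD52 and DKOITD185 and 9.48 kb in WT mice. The same means for Tcf7 were 0.733, 4.53 and 3.09 kb, and for Bcl11b 3.97, 20.2 and 15.1 kb. For Gata3 they were 8.87, 19.2 and 16.4 kb. The division of DKOITD mice by territory was made on the data and is a description only.

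Gata3, a zinc-finger factor of early T-cell and helper T-cell development, lies on chromosome 2, 9857078 to 9887953. H3K27me3 covered 13.2 kb in DKOITD48, 17.9 kb in DKOITD52, 3.74 kb in DKOITD53e, 9.66 kb in DKOITD83 and 20.4 kb in DKOITD185, against 18.8, 14.1 and 16.4 kb in the 3 WT mice. DKOITD53e had the least and DKOITD185 the most, and the remaining mice were spread between them without a gap between the groups. Peaks of all 8 mice merged into a region of 27.2 kb, the widest of any member. The region ran from 14.3 kb inside the higher-coordinate end to 12.9 kb beyond it (9873649 to 9900836). The measured locus holds its part within 5 kb of the gene. No single mouse covered all of this region. It was a single peak of 25 kb in DKOITD52, 24 kb in DKOITD185, 25.5 kb in WT1 and 23 kb in WT3. In the other 4 mice it was broken, and the widest piece was 9.11 kb in DKOITD48, 3.5 kb in DKOITD53e, 5.74 kb in DKOITD83 and 11.4 kb in WT2.

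**Figure D1:**
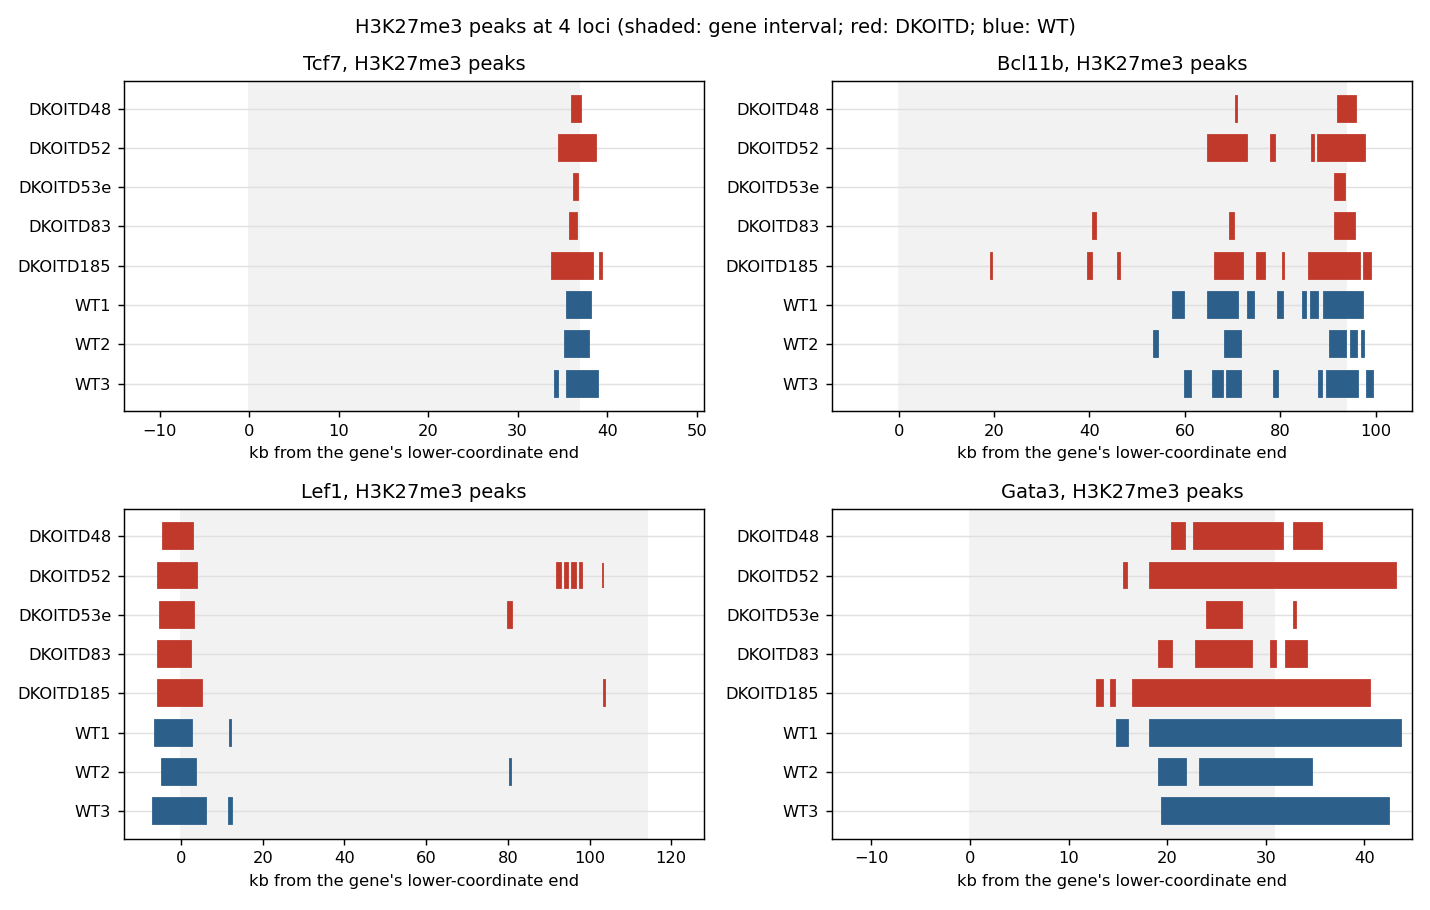
H3K27me3 peaks at Tcf7, Bcl11b, Lef1 and Gata3 in 5 DKOITD mice (red, upper rows) and 3 WT mice (blue, lower rows); the horizontal axis is distance in kb from the gene's lower-coordinate end and the gene interval is shaded. Each gene has 1 region held by all 8 mice, at the higher-coordinate end of Tcf7, Bcl11b and Gata3 and the lower-coordinate end of Lef1. DKOITD53e has the least covered length at Tcf7, Bcl11b and Gata3 but not at Lef1.

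At none of these 4 genes did the H3K27me3 difference between DKOITD and WT mice exceed the spread between mice. For Tcf7 the mean was 2.25 ± 2.1 kb in DKOITD mice (SD, n = 5) and 3.09 ± 0.63 kb in WT mice (SD, n = 3), and for Bcl11b 10.5 ± 9.02 kb in DKOITD mice and 15.1 ± 6.11 kb in WT mice. They were 9.38 ± 2.17 kb in DKOITD mice and 9.48 ± 2.04 kb in WT mice for Lef1, and 13 ± 6.64 kb in DKOITD mice and 16.4 ± 2.31 kb in WT mice for Gata3. Two-sided exact permutation tests over the 56 assignments of the mice gave p = 0.536 for Tcf7, 0.429 for Bcl11b, 0.929 for Lef1 and 0.464 for Gata3, where the smallest p the design allows is 0.0357. limma on log2(kb + 0.5), with Benjamini-Hochberg adjustment over the 5695 genes tested, gave a log2 fold change of −0.73 (SE 0.87, adjusted p = 0.654) for Tcf7 and −0.89 (SE 0.64, adjusted p = 0.606) for Bcl11b. The same limma fit gave −0.02 (SE 0.42, adjusted p = 0.978) for Lef1 and −0.51 (SE 0.46, adjusted p = 0.608) for Gata3. In this fit 0% of all genes were called lower in DKOITD mice and 0% higher, while 387 genes had an unadjusted p under 0.05. Without DKOITD48, DKOITD53e and DKOITD83, the fold changes were 0.50 for Tcf7, 0.48 for Bcl11b, 0.28 for Lef1 and 0.22 for Gata3, so the direction rested on those 3 mice.

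Within each library these loci stood high among all genes. Bcl11b had more H3K27me3 than 98.2% to 99.4% of genes in DKOITD mice and 99.0% to 99.8% in WT mice, and Gata3 more than 99.0% to 99.8% in DKOITD mice and 99.6% to 99.7% in WT mice. Lef1 exceeded 96.2% to 99.8% of genes in DKOITD mice and 96.4% to 98.9% in WT mice. Its highest value, 99.8%, was in DKOITD53e, the mouse with the least H3K27me3 territory. Tcf7 ranked lower, above 90.1% to 94.4% of genes in DKOITD mice and 86.2% to 92.2% in WT mice. These ranks count every gene without a peak as lower, so a short list can raise them, and locus length was not taken into account. Tcf7 had its highest rank, 94.4%, in DKOITD53e, where its length was least, 0.469 kb. Per Mb of each mouse's own H3K27me3 territory, Lef1 held 1.4 kb in DKOITD48, 0.411 kb in DKOITD52, 2.91 kb in DKOITD53e, 1.43 kb in DKOITD83 and 0.259 kb in DKOITD185, against 0.293, 0.625 and 0.545 kb in the WT mice. Gata3 held 2.54, 0.592, 1.18, 1.85 and 0.504 kb in the DKOITD mice in the same order. Its WT values were 0.688, 1.02 and 0.757 kb. On the same scale Tcf7 held 0.12 to 0.187 kb in DKOITD mice and 0.1 to 0.197 kb in WT mice. Bcl11b held 0.527 to 1.09 kb in DKOITD mice and 0.661 to 0.784 kb in WT mice. For Tcf7 and Bcl11b the groups thus overlapped. The shared region of each of the 4 genes was defined by a peak in all 8 mice, so its presence in the short lists follows from that. Of 35 merged H3K27me3 regions at the 6 loci, 4 were held by all 8 mice, against 2.85% of all merged H3K27me3 regions in the genome.

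Tox, an HMG-box factor of thymocyte selection and of innate lymphoid cells, lies on chromosome 4, 6686353 to 6991557. H3K27me3 covered 2.47 kb in DKOITD52 and none in DKOITD48, DKOITD53e, DKOITD83 and DKOITD185, against 3.44, 2.16 and 1.92 kb in the 3 WT mice. The mark was thus present in all 3 WT mice and in 1 of 5 DKOITD mice, and DKOITD185 lacked it although its H3K27me3 territory was the largest of the 8. Every one of these peaks lay at the higher-coordinate end of the gene (6988723 to 6992164), where Tox starts. The mean was 0.494 ± 1.1 kb in DKOITD mice (SD, n = 5) and 2.51 ± 0.82 kb in WT mice (SD, n = 3), and the ranges overlapped because of DKOITD52. The difference was not past the threshold in the two-sided exact permutation test (p = 0.107) or in limma after Benjamini-Hochberg adjustment (log2 fold change −2.04, SE 0.81, adjusted p = 0.579). With all 8 mice, every DKOITD mouse lay below every WT mouse at 1.35% of all genes, and Tox was not among them. Without DKOITD52 that layout held at 2.79% of genes, Tox included.

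Tox also carried small H3K27ac peaks. They covered 0.407 kb in DKOITD48, 2.73 kb in DKOITD185 and none in DKOITD52, DKOITD53e and DKOITD83, against 0.232 kb in WT1, 0.237 kb in WT3 and none in WT2. The peaks of the WT mice lay deep inside the gene, more than 200 kb from its start. In DKOITD185 a peak of 1.87 kb and in DKOITD48 one of 0.407 kb lay in a single region (6989379 to 6991244) 0.313 to 2.18 kb inside the start. That stretch lies inside the merged region of the H3K27me3 peaks of the WT mice and DKOITD52, and no mouse had both marks there. The H3K27me3 peaks of WT2 and WT3 ended short of its upper border, at 6990943 and 6991218. The groups overlapped, at 0.628 ± 1.19 kb in DKOITD mice and 0.156 ± 0.135 kb in WT mice (two-sided exact permutation p = 0.929; limma log2 fold change 0.34, SE 0.60, adjusted p = 0.73). The higher mean in DKOITD mice came from DKOITD185, and the log2 fold change was −0.16 without it.

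**Figure D2:**
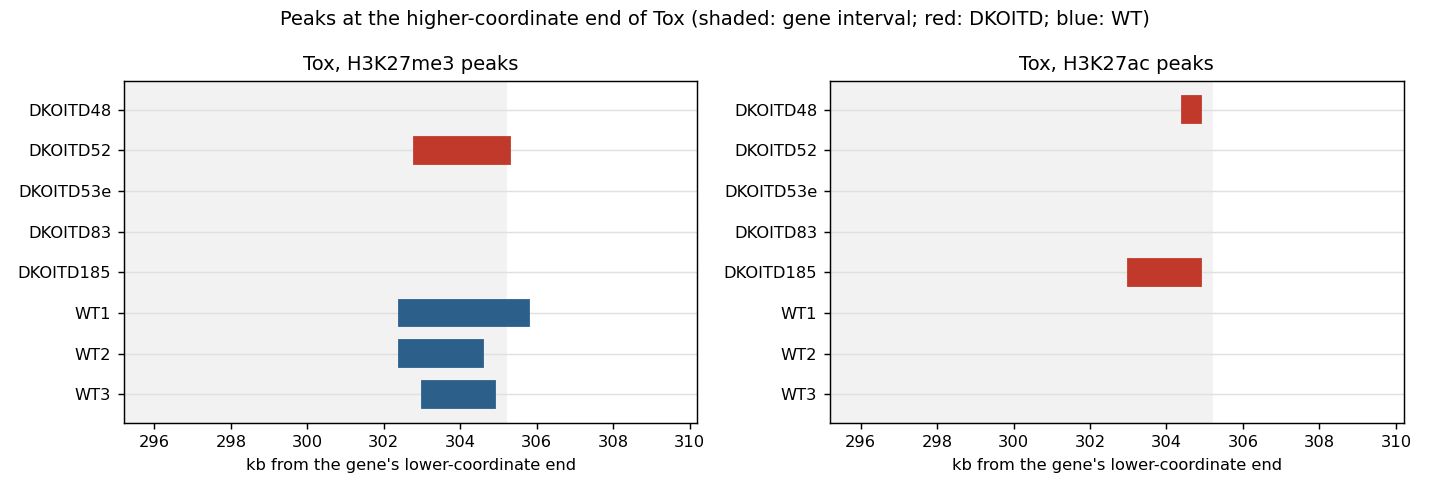
H3K27me3 peaks (left) and H3K27ac peaks (right) near the higher-coordinate end of Tox in 5 DKOITD mice (red, upper rows) and 3 WT mice (blue, lower rows); the horizontal axis is distance in kb from the gene's lower-coordinate end and the gene interval is shaded. DKOITD52 and the 3 WT mice have the H3K27me3 peak, and DKOITD48 and DKOITD185 have the H3K27ac peak in the same stretch.

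Ets1, an ETS-family factor used in T, B and natural killer cells, lies on chromosome 9, 32636241 to 32757820. H3K27ac covered 0.277 kb in DKOITD48, 0.911 kb in DKOITD52, 0 kb in DKOITD53e, 0.631 kb in DKOITD83 and 0.672 kb in DKOITD185, against 9.90, 5.38 and 4.76 kb in WT1, WT2 and WT3. Every DKOITD mouse was below every WT mouse, as at 8.56% of all genes, which include the 37.7% with under 200 bp in every mouse. The mean was 0.498 ± 0.359 kb in DKOITD mice (SD, n = 5) and 6.68 ± 2.8 kb in WT mice (SD, n = 3). H3K27ac at Ets1 was lower in DKOITD mice by limma (log2 fold change −2.87, SE 0.37, Benjamini-Hochberg adjusted p = 0.00404 over 11937 genes), and the two-sided exact permutation test gave p = 0.0357, the smallest it can give. Ets1 was the 1 member called, in a fit that called 4.25% of the genes tested lower in DKOITD mice and 0.804% higher. Without WT1, the mouse with the most H3K27ac at Ets1, the log2 fold change was −2.57 and the limma adjusted p was 0.0573, so the call at 0.05 was lost, although the groups still did not overlap. The H3K27ac lists of WT1 and DKOITD53e, the highest and lowest values here, were called from alignments of a single run, per the file headers, and without both mice the log2 fold change was −2.34 (limma adjusted p = 0.0428).

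The difference was uneven along Ets1. Peaks of the 8 mice formed 9 regions, and 8 of them were held by WT mice only. A region of 4.43 kb (32653474 to 32657906) and one of 1.56 kb (32667248 to 32668806) were each present in all 3 WT mice and in no DKOITD mouse. Of 15 merged H3K27ac regions at the 6 loci these were the 2 with that layout, which 3.26% of all merged H3K27ac regions had. The exception among the 9 was a region of 1.36 kb about midway along the interval (32695407 to 32696771), held by 4 DKOITD mice and by all 3 WT mice. There the peak was 0.277 kb wide in DKOITD48, 0.911 kb in DKOITD52, 0.631 kb in DKOITD83 and 0.672 kb in DKOITD185, against 1.34, 1.12 and 1.06 kb in the WT mice. Every DKOITD peak in it was narrower than every WT peak. By the authors' fold enrichment, which ranks peaks within 1 list, this was the strongest Ets1 peak in each of the 3 WT lists. RefSeq intervals span all transcripts of a gene, and the table used gives neither strand nor transcript starts, so where Ets1 transcripts begin relative to these regions was not examined.

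Ets1 had next to no H3K27me3. Its peaks summed to 0.652 kb in DKOITD52 and 0.913 kb in DKOITD185, with none in DKOITD48, DKOITD53e, DKOITD83 or any WT mouse (two-sided exact permutation p = 0.714). These 2 mice have the largest H3K27me3 territories of the 8. In both, 1 of the small peaks (32696384 to 32696921 together) lay at the edge of the retained H3K27ac region, and it overlapped the H3K27ac peak by 136 bp in DKOITD52. That peak was 0.209 kb wide in DKOITD52, where 96% of the list's peaks were as wide or wider, and 0.499 kb in DKOITD185, where 62% were.

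**Figure D3:**
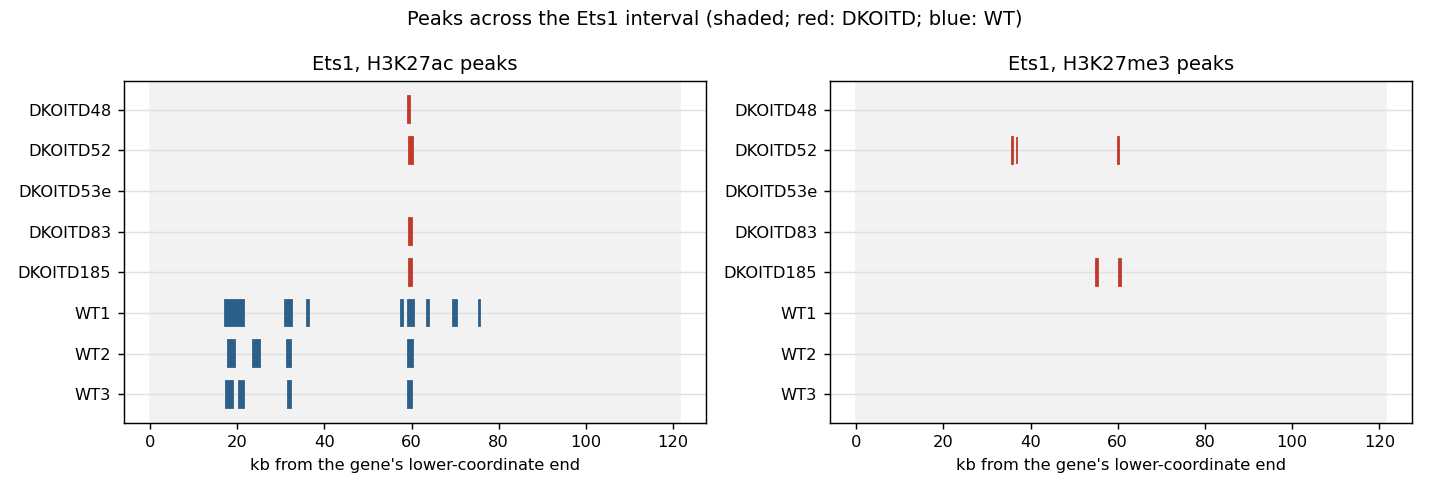
H3K27ac peaks (left) and H3K27me3 peaks (right) along Ets1 in 5 DKOITD mice (red, upper rows) and 3 WT mice (blue, lower rows); the horizontal axis is distance in kb from the gene's lower-coordinate end and the gene interval is shaded. A single H3K27ac region is shared by 4 DKOITD mice and 3 WT mice, and 8 further regions are found in WT mice only.

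At the remaining members H3K27ac was absent or nearly so. Tcf7, Bcl11b and Gata3 had no H3K27ac peak in any of the 8 mice, and fewer than 200 bp in all 8 mice was also the state of 37.7% of all genes. Lef1 had 1 peak of 0.823 kb in WT1 (131106433 to 131107255) and none elsewhere, and all 823 bp of it lay inside the H3K27me3 domain of the same mouse (two-sided exact permutation p = 0.75). A missing peak is not absence of the mark, since weak or rare signal falls below the caller's threshold. Counted per mouse, H3K27me3 marked 4 of the 6 members in DKOITD48, DKOITD53e and DKOITD83, 6 in DKOITD52 and 5 in DKOITD185, against 5 in each WT mouse. H3K27ac marked 2, 1, 0, 1 and 2 members in DKOITD48, DKOITD52, DKOITD53e, DKOITD83 and DKOITD185, against 3, 1 and 2 in WT1, WT2 and WT3.

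**Figure D4:**
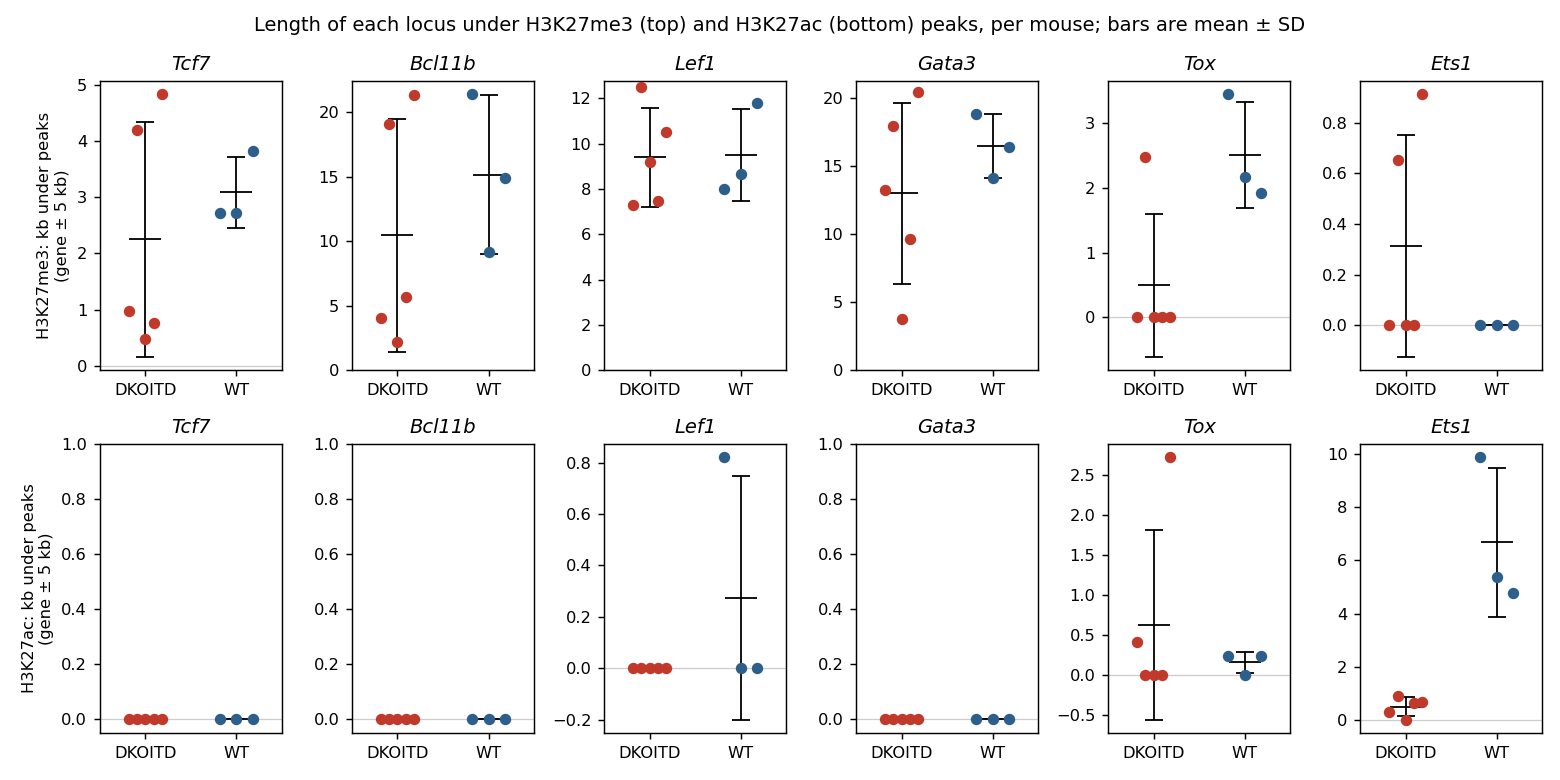
Length in kb under H3K27me3 peaks (top row) and H3K27ac peaks (bottom row) at each of the 6 genes, with 1 point per mouse, DKOITD (red, n = 5) left of WT (blue, n = 3), and bars for mean ± SD. The groups overlap in every panel but Ets1 H3K27ac, where DKOITD mice have 0 to 0.911 kb and WT mice 4.76 to 9.90 kb.

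Other genes of the same programme were read from lists fixed by name. Of 20 other transcription factors of the T lineage, 16 were tested for H3K27ac and 1 was called, lower in DKOITD mice, against 4.25% of all genes tested. This was Gfi1, a zinc-finger repressor of lymphoid and myeloid progenitors, with 0.428 ± 0.83 kb in DKOITD mice and 4.61 ± 1.15 kb in WT mice (limma log2 fold change −2.76, adjusted p = 0.0186). The list's median log2 fold change was −0.77, against −0.36 over all genes. Runx1, which is floxed in both groups, had 12.9 ± 11.4 kb in DKOITD mice and 23.8 ± 6.86 kb in WT mice (limma adjusted p = 0.369), and Myb 1.46 ± 1.45 kb in DKOITD mice and 5.68 ± 2.01 kb in WT mice (limma adjusted p = 0.114).

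Of 20 T-cell identity genes, which act downstream of these factors, 10 were tested for H3K27ac and 2 were called, both lower in DKOITD mice, from the same background of 4.25%. Ubash3a, a regulator of T-cell receptor signalling, had 0.152 ± 0.21 kb in DKOITD mice and 3.37 ± 1.71 kb in WT mice (limma adjusted p = 0.00507). Trat1, an adaptor associated with the T-cell receptor, had 0.122 ± 0.272 kb in DKOITD mice and 2.76 ± 0.775 kb in WT mice (limma adjusted p = 0.00452). Cd3e, Zap70, Lat, Cd2, Cd28, Il7r and Cd8a had no H3K27ac peak in any mouse, and the list's median log2 fold change was −0.84. Of 16 progenitor and alternative-fate factors, 14 were tested and 2 were called, both lower in DKOITD mice. Tal1, a stem-cell and erythroid factor, had 0.0748 ± 0.167 kb in DKOITD mice and 3.46 ± 0.295 kb in WT mice (limma adjusted p = 0.00079), and Lmo2, its partner, had 1.56 ± 0.499 kb in DKOITD mice and 6.27 ± 3.36 kb in WT mice (limma adjusted p = 0.0499). With so few genes called, these counts say nothing particular to the lists. Gfi1 and Ubash3a were marked in 2 DKOITD mice each, and Trat1 and Tal1 in 1 each. They passed the filter on coverage only with the WT mice, so their calls are a description only. Without WT1, limma called 15 genes lower in all. Tal1 kept its call there (adjusted p = 0.0276), while Gfi1 (0.145), Ubash3a (0.0621), Trat1 (0.0625) and Lmo2 (0.28) lost theirs. The progenitor and alternative-fate list had a median log2 fold change of −1.01. For H3K27me3, none of the 10, 7 and 10 tested genes of the 3 lists was called by limma, and their medians were −0.70, −0.11 and −0.93, against −0.84 over all genes.

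Markers of several other cell types also differed between the DKOITD and WT preparations. Summed over 8 T-cell markers, H3K27ac covered 1.36 to 5.23 kb in DKOITD mice and 5.27 to 11.5 kb in WT mice. Trat1 was called lower by limma, and Cd3e and Zap70 were at 0 in all mice. Cd3d and Cd3g were marked in all 5 DKOITD and all 3 WT mice and were not called (limma adjusted p = 0.303 and 0.139). The 7 markers of natural killer and innate lymphoid cells summed to 0.384 to 1.73 kb in DKOITD mice and 0 to 1.42 kb in WT mice, with none called and with Klrb1c, Ncr1, Eomes and Tbx21 at 0. The 7 B-lineage markers summed to 1.16 to 8.02 kb in DKOITD mice and 4 to 16.9 kb in WT mice, with Vpreb1 called lower. The sums were apart between the groups for the T-cell, myeloid, erythroid and progenitor lists and overlapped for the others. For the T-cell list the groups nearly met, at 5.23 kb in DKOITD mice and 5.27 kb in WT mice. The 7 myeloid markers summed to 0.737 to 8.54 kb in DKOITD mice and 12.2 to 28.8 kb in WT mice. Of these markers Camp, S100a8 and Ltf were called lower. Csf1r of the same list had 2.03 ± 1.41 kb in DKOITD mice and 0.359 ± 0.621 kb in WT mice (limma log2 fold change 1.60, adjusted p = 0.129). The 6 dendritic markers summed to 9.84 to 42.1 kb in DKOITD mice and 7.03 to 12.7 kb in WT mice, with Cd74 called higher. The 6 erythroid markers summed to 1.2 to 4.17 kb in DKOITD mice and 4.61 to 10.4 kb in WT mice, with Car2 called lower, and the 6 progenitor markers to 0 to 3.36 kb in DKOITD mice and 5.94 to 10.1 kb in WT mice, with Kit called lower. Camp, S100a8 and Car2 had 0 kb in every DKOITD mouse and passed the filter on coverage only through the WT mice. Trat1 and Kit were marked in 1 DKOITD mouse each and Ltf in 2, so they too passed that filter only with the WT mice. The calls of all these genes are thus a description only. Without WT1, limma no longer called Trat1, Vpreb1 (adjusted p = 0.183), Ltf (0.186) or Kit (0.221), and Camp, S100a8 and Car2 fell below the filter on coverage. These shifts stand beside the result at Ets1, and their part in it was not tested.

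The genes whose covered length moved most like each member over the 8 mice are given as a description, since the points share libraries and territories. For Ets1 H3K27ac they included Cdca7l (Pearson's r = 0.9940 on the log2 scale) and Syne1 (0.9883). Syne1 had a mean of 0.48 kb in DKOITD mice and 11.7 kb in WT mice. For H3K27me3 the nearest gene was Trnp1 for Tcf7 (0.9933), Dnajc6 for Bcl11b (0.9949), Hoxa5 for Lef1 (0.9535), Hoxb6 for Gata3 (0.9980) and Myo7a for Tox (0.9975). Hoxb6, a homeobox gene in a Polycomb-covered cluster, had a mean of 13.1 kb in DKOITD mice and 15.9 kb in WT mice, near the Gata3 means. The next nearest were Mast4 and Vgf for Tcf7, Grin2c and Yif1a for Bcl11b, Luzp2 and Igsf10 for Lef1, Gm46592 and Dmrt2 for Gata3, and Flt3 and Slc2a4 for Tox. Flt3, the receptor gene that carries the duplication in DKOITD mice, had a mean H3K27me3 length of 0.434 kb in DKOITD mice and 2.2 kb in WT mice, and its r with Tox was 0.9923. For Tox H3K27ac the nearest were Traf6, Gm40892 and Ncald, with r of 0.9627 to 0.9696 that rest mainly on DKOITD185.

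In the human lines the loci separated into 2 kinds. BCL11B and TCF7 carried broad H3K27ac in Jurkat and little in Loucy, and GATA3 carried a similar domain in both. At BCL11B, H3K27ac covered 50.3 and 46.3 kb of the 120 kb window in the Jurkat libraries, against 4.89 and 6.92 kb in the Loucy libraries. The window held 11 and 9 peaks in Jurkat and 2 and 5 in Loucy. The widest peak was 19.2 and 22.6 kb in Jurkat, the 38th and 24th widest of their whole lists, against 3.64 and 4.64 kb in Loucy, the 2078th and 2250th widest. The means were 48.3 ± 2.83 kb in Jurkat and 5.9 ± 1.43 kb in Loucy (SD, n = 2 each), a ratio of 8.18. limma over 19764 loci and 50 kb windows gave a log2 fold change (Jurkat over Loucy) of 2.95 (SE 0.23, Benjamini-Hochberg adjusted p = 0.00469). The call was lost when only peaks with −log10 q of at least 5 were kept (4.40, limma adjusted p = 0.0986).

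The wide Jurkat peaks at BCL11B fell into 2 blocks, with small peaks between them. One lay in the lower part of the window, where the widest peak ran from 99184020 to 99195641 in Jurkat 1 and from 99182376 to 99195860 in Jurkat 2. The other lay at the upper part, from 99244277 to 99274755 in Jurkat 1 and from 99244676 to 99274988 in Jurkat 2, each time as 2 wide peaks. BCL11B is transcribed toward lower coordinates, so the upper block is on the side of its start. Loucy had the main part of its H3K27ac in that upper block, between 99267948 and 99274594, and 100% of the covered length of Loucy 1 and 86.1% of that of Loucy 2 lay under the peaks of each Jurkat library. Within the widest Jurkat peaks of the lower block neither Loucy library had a peak. At lower coordinates Loucy 2 had 1 of 0.204 kb (99178598 to 99178801), and Loucy 1 had none. Seen from Jurkat, 9.72% to 12.9% of its covered length was also covered in Loucy.

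At TCF7, H3K27ac covered 32.4 and 32.2 kb of the 55 kb window in Jurkat, against 2.85 and 7.20 kb in Loucy. The peaks numbered 8 and 5 in Jurkat and 3 and 3 in Loucy, and the widest was 13.8 and 26.6 kb in Jurkat against 1.5 and 3.5 kb in Loucy. The peak of 26.6 kb in Jurkat 2 (134113021 to 134139615) was the 18th widest of its list, and Jurkat 1 had the same stretch as 2 peaks of 12.3 and 13.8 kb. The means were 32.3 ± 0.131 kb in Jurkat and 5.03 ± 3.08 kb in Loucy (SD, n = 2 each), a ratio of 6.43 (limma log2 fold change 2.69, SE 0.47, adjusted p = 0.0209). The size depended on the Loucy library, at 2.09 without Loucy 1 and 3.29 without Loucy 2, and the limma call held in both (adjusted p = 0.00865 and 0.00628). In Loucy 1 the peaks stood at 2 places, 134122517 to 134123364 and 134137690 to 134141336, and Loucy 2 had wider peaks at the same places and 1 more of 0.239 kb. Of the covered length of Loucy 1, 99.6% lay under peaks of Jurkat 1 and 64% under peaks of Jurkat 2, and of that of Loucy 2, 100% and 82.7%. A first Jurkat peak crossed the lower border of the window, and only the part inside was counted.

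GATA3 had the same domain in all 4 libraries. H3K27ac covered 10.9 and 10.1 kb of the 40 kb window in Jurkat, against 9.54 and 10.3 kb in Loucy. A single wide peak made up most of it, from 8053547 to 8063090 in Jurkat 1 and from 8053547 to 8062934 in Jurkat 2, and from 8053754 to 8062949 in Loucy 1 and from 8053234 to 8063125 in Loucy 2. Its width was 9.54 and 9.39 kb in Jurkat and 9.20 and 9.89 kb in Loucy. The remaining peaks were at most 0.489 kb wide, 4 and 2 of them in Jurkat and 1 in each Loucy library. The means were 10.5 ± 0.619 kb in Jurkat and 9.93 ± 0.556 kb in Loucy (SD, n = 2 each; limma log2 fold change 0.08, SE 0.15, adjusted p = 0.703). Between 84.1% and 93.3% of the length covered in a Jurkat library was covered in a Loucy library, and 90.9% to 96.4% in the other direction. In each of the 4 lists this peak had a higher −log10 q than 95% to 96.5% of that list's peaks.

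**Figure D5:**
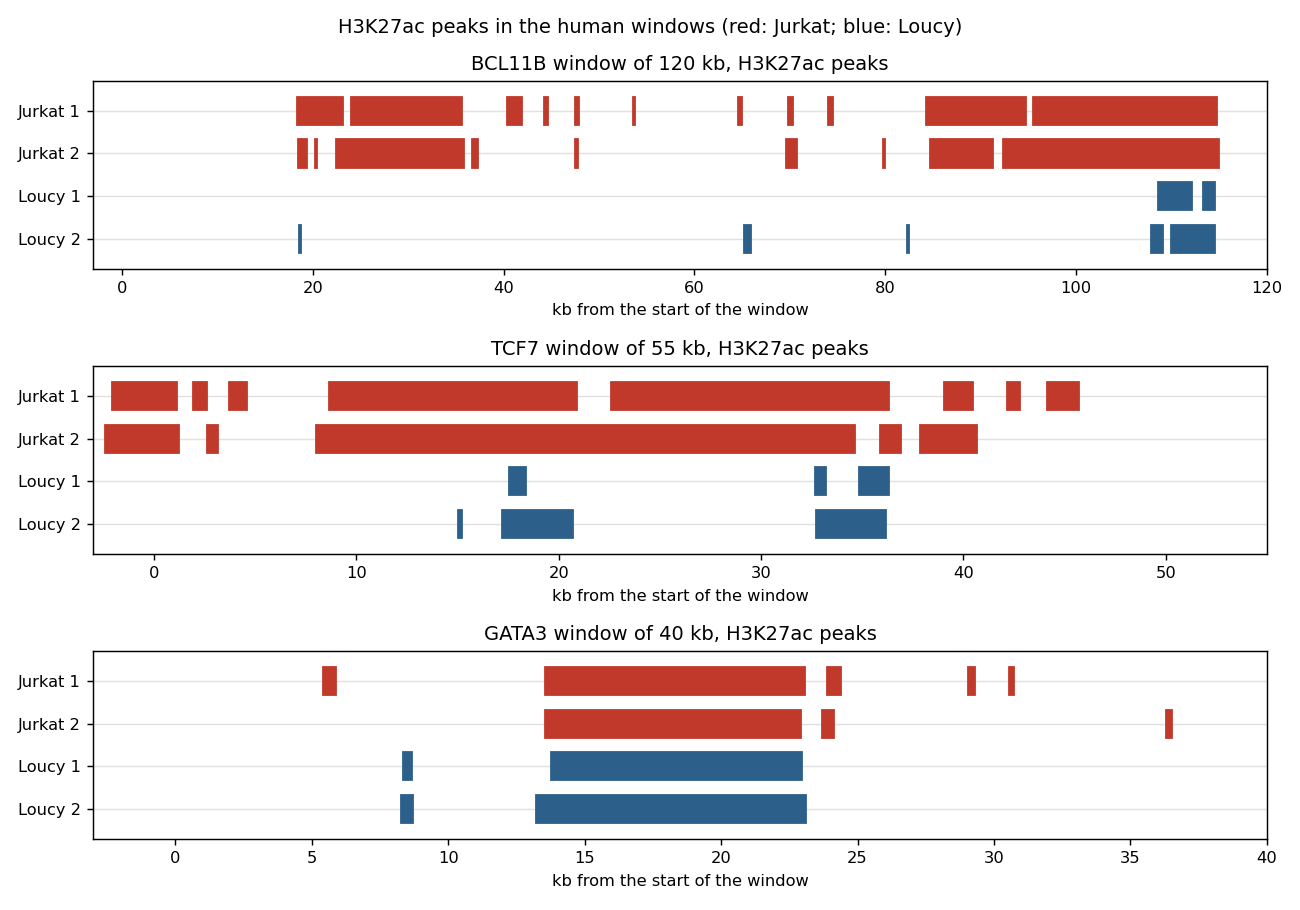
H3K27ac peaks in the windows of BCL11B, TCF7 and GATA3 in 2 Jurkat libraries (red, upper rows) and 2 Loucy libraries (blue, lower rows); the horizontal axis is distance in kb from the start of each window, and the wide GATA3 peak of the Jurkat libraries begins at 13.55 kb. Jurkat covers 50.3 and 46.3 kb at BCL11B and 32.4 and 32.2 kb at TCF7, Loucy at most 7.20 kb at either, and the wide GATA3 peak is present in all 4.

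The lines differed at many places, so that the calls at BCL11B and TCF7 stand against 21.6% of the tested windows called higher in Jurkat and 23.3% called lower. With 3 loci, 2 calls cannot be set apart from that share. By extent, among windows of the same length along the genome, BCL11B in Jurkat had more H3K27ac than 99.933% and 99.929% of them, and in Loucy more than 89.303% and 88.888%. TCF7 exceeded 99.953% and 99.955% of windows in Jurkat and 91.596% and 95.752% in Loucy. GATA3 exceeded 99.345% and 99.292% in Jurkat and 99.155% and 98.515% in Loucy. Loucy 2 had the largest H3K27ac territory of the 4 libraries, 64.24 Mb, and Loucy 1 the smallest, 44.01 Mb, with 48.87 and 45.32 Mb in Jurkat. The part of list extent in the differences at BCL11B and TCF7 was not tested. With 2 libraries a line, the exact permutation test over 6 assignments cannot go below p = 0.333, and it gave 0.333, 0.333 and 0.667 for BCL11B, TCF7 and GATA3.

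H3K27me3 covered no part of the BCL11B or TCF7 window in any library. At GATA3 it covered 0.576 and 2.17 kb in Jurkat and none in Loucy, and at least 200 bp in both Jurkat libraries was the state of 6.54% of all 50 kb windows. Those peaks, at 8049291 to 8051456 in Jurkat 2, lay beside the wide H3K27ac peak and did not touch it. The Loucy lists hold only 189 and 200 H3K27me3 peaks in the whole genome, against 16687 and 10199 in the Jurkat lists, so a missing peak in Loucy says little about the mark there.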

How the data were processed

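ChIP-seq of H3K27ac and H3K27me3 gave 24 peak lists among 28 libraries, and the other 4 were inputs, used as controls by the authors. The members and gene lists were chosen with earlier results of these data known. Per the submitters' processing notes, Bowtie2 2.2.5 and MACS2 2.0.10 were used with the builds mm10 and hg38. Per the file headers, broad peaks were called with MACS 2.0.10.20131216 in each library separately with q below 0.05, WT against the input of WT1, DKOITD against that of DKOITD48 and each line against that of its replicate 2. Per the file headers, the deposited values per peak are pileup (signal, as fragment coverage), the −log10 of the p-value and of the q-value, and fold enrichment, a ratio to local background made by the authors. Since lists differ in depth and enrichment, these values were never compared between libraries. Drosophila chromatin was added, and per the labels' protocols its reads were not used, so no absolute level of a mark is known.

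Covered length was computed from merged peaks over RefSeq gene positions (GRCm38, the assembly of mm10; no strand) and tested with limma 3.58.1 in R 4.3.3 on log2(kb + 0.5), with trend, for genes with at least 200 bp in at least 3 of 8 mouse libraries (2 of 4 human ones), and by exact permutation in scipy 1.17.1. Tox and Ets1 passed that filter for H3K27ac, and all members but Ets1 for H3K27me3. The pipeline was tested on simulated data. Named genes were all members, the called genes or those with the largest differences in each list, and the 3 most similar genes on the log2(kb + 0.5) scale at least 1 Mb away, of which 1 is not reported here. No human annotation and no sequence was used.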

Additional observations from a re-analysis of the deposited data

Results flagged for a closer look

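In the 5 DKOITD mice, 8 pairs of member and mark with any covered length were looked at for a mouse that stood apart from the other 4. How often this check flags lengths that include values of 0 is not known. The check marked 2 pairs, both at Tox. DKOITD185 had 2.73 kb of H3K27ac there, and the next highest DKOITD mouse had 0.407 kb, a gap of 0.851 of the range. DKOITD52 had 2.47 kb of H3K27me3, and the other 4 DKOITD mice had none. There the gap is the whole range whatever the length, so this flag only restates that 1 mouse had a peak. The widest of the 3 peaks of DKOITD185, 1.87 kb, lies in the stretch at the start of the gene that the H3K27me3 peak of DKOITD52 covers, and its other 2 peaks lie far inside the gene. DKOITD52 and DKOITD185 have the largest H3K27me3 territories, and the part of this in the result was not tested.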

How the results depend on the processing

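The lower H3K27ac at Ets1 kept its direction in all 18 alternatives, with log2 fold changes of −3.79 to −1.80 and limma adjusted p of 0.00215 to 0.0573; leaving out 1 mouse gave −3.06 to −2.57, and the highest p was that without WT1. Leaving out 1 mouse, limma called 0 to 1 members for H3K27ac, and the member count whose groups do not overlap for H3K27me3 was 0 to 1 (Tox, lower in DKOITD mice without DKOITD52, as were 2.79% of all genes). That count, 0 with all mice, was 1 when lengths were scaled by territory (Tox, lower, as were 4.05% of genes) and 2 without DKOITD48, DKOITD53e and DKOITD83 together (Tcf7 and Ets1, higher, as were 11.7% of genes). Over all genes the H3K27ac calls depended on the mice: 507 lower in DKOITD with all 8, 15 to 839 with 1 mouse left out, the fewest without WT1, and 11 without WT1 and DKOITD53e, an alternative chosen after seeing the data; 96 were higher, with a range of 12 to 407 over the alternatives. For H3K27me3, 0 to 69 genes were lower and 0 to 7 higher. The H3K27me3 directions of 4 members reversed, none of them called by limma in either direction. At equal peak numbers the log2 fold change was 0.19 for Tcf7, 2.26 for Bcl11b and 1.45 for Lef1. Scaled by territory it was 0.02 for Bcl11b, 0.94 for Lef1 and 0.44 for Gata3. Without the 3 mice of small territory it was 0.50, 0.48, 0.28 and 0.22 for Tcf7, Bcl11b, Lef1 and Gata3. With peaks of −log10 q of at least 5 it was 3.35 for Lef1. With 1 mouse left out it was −0.13 to 0.14 for Lef1 H3K27me3 and −0.16 to 0.52 for Tox H3K27ac. In the human lines, peaks of −log10 q of at least 5 gave 4.40 for BCL11B (limma adjusted p = 0.0986) and −0.01 for GATA3 (limma adjusted p = 0.948). Jurkat and Loucy share replicate numbers that nothing shows to be pairs, and with the replicate block the log2 fold change was 2.95 for BCL11B, 2.69 for TCF7 and 0.08 for GATA3 (limma adjusted p = 0.0094, 0.0128 and 0.856), which changed no call. The cause of these differences was not tested. Peak lists limit what can be seen: narrow or weak marks drop out first, and 3 WT mice bound the precision.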
